A study of Mus musculus with 3 samples.

Results

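The microRNAs of the cluster that runs from miR-17 to miR-92a, and of its paralogous clusters, were followed in organoids of mouse intestine, a culture in which stem cells form small hollow epithelial bodies. Members were taken by name: every probe for either arm of miR-17, miR-18a, miR-19a, miR-19b, miR-20a, miR-92a, miR-20b, miR-106b, miR-93 and miR-25, which gave 22 of the 1265 microRNA probes on each array. These 10 microRNAs were chosen as MYC-induced microRNAs in a tumour driven by Wnt signalling. No measured value entered the rule, although earlier results of these data were known when it was set. The study hybridised 3 single-colour arrays. The first group was tumour organoids of ApcMin mice that had received 5-Aza-CdR at 1 uM, also called decitabine, a nucleoside analogue that traps the enzymes of DNA methylation, the second was tumour organoids of ApcMin mice with no such exposure, and the third was organoids from normal intestinal epithelium of wild-type mice. ApcMin mice inherit a truncated copy of Apc, a brake on Wnt signalling. Matrigel and a serum-free medium holding R-spondin 1, EGF and Noggin are listed for all cultures, so the wild-type cultures also received a factor that strengthens Wnt signalling. The labels give neither the number of animals or culture lines behind an array, nor their age, nor the time of exposure. With 1 array in each group, nothing below could be tested against replicates, p-values are not given, and an effect of the array cannot be told apart from one of the group.

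A microRNA is cut from a hairpin in a longer transcript, and 1 transcript can hold several hairpins. One arm of the hairpin, the guide strand, usually enters the silencing complex and pairs with messenger RNAs through its seed, bases 2 to 8, while the other arm is mostly degraded. The transcript that runs from miR-17 to miR-92a is a known direct target of MYC, the transcription factor that Wnt signalling raises when Apc is lost, and its products restrain cell cycle inhibitors and the pro-apoptotic factor Bim. In RefSeq on GRCm38.p6 the 6 hairpins of miR-17, miR-18a, miR-19a, miR-20a, miR-19b-1 and miR-92a-1 lie on the plus strand at chr14:115043671-115044506, and the annotated long noncoding host gene Mir17hg (chr14:115044390-115046728) overlaps the last of them. The hairpins of miR-106b, miR-93 and miR-25 lie on the minus strand at chr5:138165321-138165818, inside the span of Mcm7 (chr5:138164583-138172111), which encodes a subunit of the replicative DNA helicase. Those of miR-20b, miR-19b-2 and miR-92a-2 lie on the minus strand at chrX:52741838-52742192. The relatives miR-106a, miR-18b and miR-363, which are not members, lie on the same strand beside them. Mature miR-19b-3p and miR-92a-3p are made from both chromosome 14 and chromosome X, so their probes cannot tell the 2 sources apart.

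The mature sequences show which probes may share signal and which members share a seed. They are from RefSeq (GRCm38.p6), 5′ to 3′, with the seed in capitals, and 21 of the 22 member probes matched an entry. The first 6 share the seed AAAGUGC, the next shares its seed with no other shown, the next pair has that of miR-19a-3p and the next pair that of miR-92a-3p. The last 2 are the 5p arms that stood apart from their partners. miR-106a-5p is outside the rule and is shown as the nearest relative of miR-17-5p.
miR-17-5p: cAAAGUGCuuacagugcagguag
miR-20a-5p: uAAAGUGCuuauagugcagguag
miR-20b-5p: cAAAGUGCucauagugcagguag
miR-106a-5p: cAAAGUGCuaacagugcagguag
miR-106b-5p: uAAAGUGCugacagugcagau
miR-93-5p: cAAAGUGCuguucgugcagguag
miR-18a-5p: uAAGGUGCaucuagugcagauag
miR-19a-3p: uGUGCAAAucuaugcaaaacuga
miR-19b-3p: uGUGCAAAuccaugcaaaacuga
miR-92a-3p: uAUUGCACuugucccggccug
miR-25-3p: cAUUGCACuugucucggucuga
miR-92a-2-5p: aGGUGGGGauugguggcauuac
miR-25-5p: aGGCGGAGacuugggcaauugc

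Counted from 1 at the 5′ end of miR-17-5p, and with its base first, miR-106a-5p differed by U10A alone, miR-20a-5p by C1U and C12U, and miR-20b-5p by U10C and C12U. miR-106b-5p differed from miR-17-5p by C1U, U10G and G20A over the 21 bases compared, and miR-93-5p by U10G, A11U, C12U and A13C. miR-19a-3p differed from miR-19b-3p by C11U alone, with the base of miR-19b-3p first. miR-25-3p differed from miR-92a-3p by U1C, C14U and C18U, with the base of miR-92a-3p first. Outside the rule, miR-18b-5p carries the seed of miR-18a-5p and differs from it by A18U and A20U, with the base of miR-18a-5p first. In the same notation miR-92b-3p differs from miR-92a-3p by U10C and G21C over the 21 bases compared. Probes for such close sequences may capture each other's targets, and values of single members of these families are uncertain. The seed AAAGUGC was carried by 7 probes of the array with a matched sequence, of which 5 were members.

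The signal of a spot is given above the mean of the blank spots of its array, in scanner units. A probe was called detected above the blank mean plus 2 SD. On the treated tumour, tumour and wild-type arrays, 914, 959 and 954 of the 1265 probes were detected, and 408, 410 and 413 exceeded the brightest negative control, which stood 15.7, 23.6 and 15.5 above blank. The labelled epithelial origin was checked with marker microRNAs. Of 17 epithelial probes, 12, 11 and 14 were brighter than the negative controls on the treated tumour, tumour and wild-type arrays, with summed signals of 4513, 6890 and 11260. Among them miR-200b-3p was at 1130, 1518 and 1335, whereas miR-194-5p was at 369, 877 and 3483, miR-192-5p at 347, 801 and 2210, and miR-215-5p at 19.7, 33.4 and 1241. The sum therefore followed these last 3, which were lower on both tumour arrays. Of 15 smooth muscle and fibroblast probes 6, 5 and 3 were, with summed signals of 208, 249 and 154, higher on both tumour arrays. Among them miR-125b-5p was at 45.8, 31.7 and 9.73, miR-100-5p at 19.7, 17.1 and 2.90 and miR-99a-5p at 19.5, 21.5 and 2.14. Others were highest on the wild-type array. These were miR-214-3p at 26.6, 35.5 and 42.6, miR-143-3p at 2.30, 2.40 and 9.75 and the muscle marker miR-145a-5p at 2.43, 4.01 and 4.77. All these signals are unscaled, and the median ratio of tumour to wild type over bright probes was 1.54. Of 8 blood cell probes 2 were brighter than the negative controls on each array. Their sums of 252, 485 and 303 were mostly miR-486-3p. The other bright one, miR-223-3p, was at 18.2, 41.9 and 20.7, highest on the tumour array, while miR-451a was at -0.67, 0.38 and 2.90. The names fixed for the endothelial marker and for the blood cell marker miR-142a matched no probe. The part of these other cells in the results below was not tested, and in such bulk RNA fewer cells of a type and less RNA per cell cannot be told apart.

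Of the 22 member probes, 19, 19 and 21 were detected on the treated tumour, tumour and wild-type arrays, and the same 13 were brighter than the negative controls on every array. The detected members together gave 1.25% of all detected signal in treated tumour, 1.16% in tumour and 1.55% in wild-type organoids. The 13 bright members were the guide strands of all 10 microRNAs, together with miR-17-3p, miR-25-5p and miR-92a-2-5p. The other 9 were minor arms. Their signals ranged from -0.14 to 13.7 in treated tumour, from -0.10 to 19.8 in tumour and from -1.06 to 11.8 in wild-type organoids. Among them miR-19a-5p was not detected on any array, and miR-19b-2-5p and miR-20b-3p were detected on the wild-type array only. For this last pair the lower bounds on the fold by which wild type exceeded tumour organoids, 1.01 and 1.00, do not separate the arrays.

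**Figure D1:**
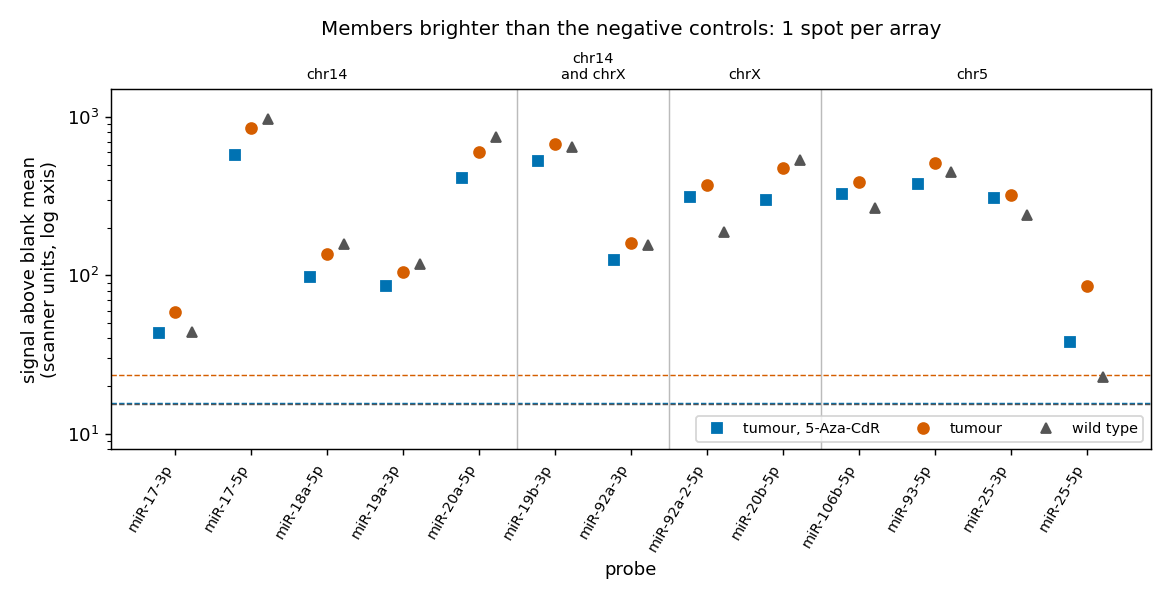
Signal above the blank mean (scanner units, log axis) of the 13 member probes brighter than the negative controls, 1 spot per array, with treated tumour (squares), tumour (circles) and wild-type (triangles) organoids side by side and dashed lines at the brightest negative control of each array (15.7, 23.6 and 15.5). For miR-17-5p, miR-18a-5p, miR-19a-3p, miR-20a-5p and miR-20b-5p the wild-type spot is the highest of the 3, and for the chromosome 5 probes the tumour spot is.

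On chromosome 14, miR-17-5p, the first microRNA of the cluster, had signals of 575 in treated tumour, 855 in tumour and 970 in wild-type organoids. miR-20a-5p, which carries the same seed, had 413, 604 and 745 in the same order. miR-18a-5p, whose family is known to target the matrix factor Ctgf, had 98.2, 137 and 158. miR-19a-3p, a member of the miR-19 family, had 86.3, 105 and 118. All 4 were brightest on the wild-type array and dimmest on the treated tumour array. miR-17-3p, the minor arm of the miR-17 hairpin, did not share this order, with 43.1, 58.8 and 44.1.

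The guide strands made from both chromosome 14 and chromosome X differed little between tumour and wild type before scaling. miR-19b-3p, the other miR-19 member, had signals of 528, 678 and 647 in treated tumour, tumour and wild-type organoids, and miR-92a-3p had 125, 159 and 155. From chromosome X alone, miR-20b-5p had 299, 480 and 538, which is the order of miR-17-5p and miR-20a-5p. miR-92a-2-5p, the 5p arm of the chromosome X hairpin, had 314, 375 and 189 and was lowest on the wild-type array. Its probe was brighter than that of its partner arm miR-92a-3p on every array.

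The chromosome 5 members stood in another order. miR-106b-5p, which restrains the cell cycle inhibitor p21, had signals of 326, 391 and 268 in treated tumour, tumour and wild-type organoids. miR-93-5p, which carries the same seed, had 376, 515 and 451. miR-25-3p, which shares the seed of miR-92a-3p and is known to target Bim, had 306, 323 and 239, and its partner arm miR-25-5p had 38.1, 85.7 and 23.0. All 4 were brightest on the tumour array, and for all but miR-93-5p the wild-type array was the dimmest.

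These signals are not yet on a common scale. The spike control spots had geometric means of 5397, 8601 and 8715 above blank on the treated tumour, tumour and wild-type arrays. Over the 437 probes brighter than the negative controls on the tumour or the wild-type array, the median ratio of unscaled signal in tumour to wild type was 1.54, and 15.8% of probes were lower in tumour organoids. The 13 members had a median ratio of 1.05, and 5 of them were lower. The treated array was dimmer than the untreated tumour array for 94.4% of 427 probes and for 13 of 13 members, with median ratios of 0.641 and 0.733. Against wild type the treated array had a median ratio of 0.985 over 440 probes, with 51.8% lower, and the members one of 0.817, with 9 of 13 lower.

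Differences were therefore taken after quantile normalization, on a log2 scale with an offset of 50 that draws differences of dim probes towards 0. The combined spread of replicate spike control spots, which leaves out all differences between cultures, extractions and hybridisations, was 0.17 for tumour against wild type, 0.17 for treated against untreated tumour and 0.13 for treated tumour against wild type. It comes from spots brighter than any member and can be larger for dim ones.

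The first comparison asked whether the MYC-induced microRNAs were higher in tumour than in wild-type organoids. After quantile normalization most were not: 11 of the 13 bright members were lower in tumour organoids, with a median log2 difference of -0.30, while 45.8% of the 437 bright probes were lower and their median was 0.03. With the spike controls as scale 5 of the 13 were lower and 8 higher, with a median of 0.08, where 14.9% of bright probes were lower and their median was 0.30. miR-20a-5p and miR-20b-5p were the lowest, at -0.67 and -0.60, followed by miR-17-5p at -0.50, miR-18a-5p at -0.47 and miR-19a-3p at -0.40. miR-93-5p, miR-19b-3p and miR-92a-3p were at -0.32, -0.30 and -0.27. These 8 were lower by more than the spot spread, which 27.9% of bright probes were. miR-17-3p (-0.15), miR-25-3p (-0.14) and miR-106b-5p (-0.07) lay within the spread.

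No member was 2-fold different between tumour and wild-type organoids in either direction, where 1.25% of the 1040 probes detected on either array were 2-fold higher and 1.35% were 2-fold lower. At 1.5-fold, 2 of 13 bright members were lower, against 8.70% of bright probes, and none was higher, against 7.55%. Of the 21 members detected on either array 16 were lower, against 48.0% of the 1040, and their median was -0.07 against 0.00. The members added here were minor arms with signals below the offset, whose differences are compressed. In rank, 8 of the 13 bright members lay in the lowest 25% of the 437 probes and 2 in the highest 25%.

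The exceptions were 2 probes of 5p arms, which were higher by more than the spot spread, as were 30.2% of bright probes. miR-25-5p was higher in tumour organoids by a log2 difference of 0.58, and miR-92a-2-5p by 0.31, while their partners on the same hairpins, miR-25-3p and miR-92a-3p, were at -0.14 and -0.27. For miR-25-5p the size varied with the processing: the difference was 0.38 when the blank spots were not trimmed, 0.83 with the spike controls as scale, 0.92 with an offset of 16, 1.28 with the blank mean subtracted, 1.46 in the authors' deposited values and -0.0034 when the per-spot background column was used. miR-92a-2-5p was higher in each of the 7 alternatives, from 0.30 to 0.82. Outside the rule, miR-92b-5p, miR-18b-3p and miR-363-5p of related hairpins were also higher in tumour organoids, at 0.53, 0.30 and 0.29. Of these, only miR-18b-3p was higher in all 7 alternatives (0.17 to 0.74). The lowest values of miR-92b-5p and miR-363-5p were -0.31 and -0.22. The probe of miR-92b-5p was at 2783 on the tumour array, where its partner arm miR-92b-3p was at 46.1. The guide strand miR-106a-5p, which differs from miR-17-5p at 1 base, was lower, at -0.69, and in 6 of the 7 alternatives, which ran from -0.79 to 0.25. The relatives miR-18b-5p and miR-92b-3p were at -0.39 and -0.19, with highest alternatives of -0.02 and 0.10.

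The guide strands that were lower in tumour organoids in all 7 alternative settings were miR-17-5p (-0.76 to -0.02), miR-18a-5p (-0.65 to -0.13), miR-19a-3p (-0.61 to -0.10) and miR-20b-5p (-0.71 to -0.13). For each of them the smallest difference lay within the spot spread of 0.17. miR-20a-5p was lower in 6 of the 7 and at 0.02 when the per-spot background column was used, where miR-19b-3p was at -1.24. The spike controls as scale put miR-106b-5p at 0.48, miR-25-3p at 0.37, miR-17-3p at 0.20, miR-93-5p at 0.19, miR-19b-3p at 0.08 and miR-92a-3p at 0.04. Under that scaling the median of all detected probes was 0.07, 19.9% of them were lower, and 8 of 21 detected members were.

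**Figure D2:**
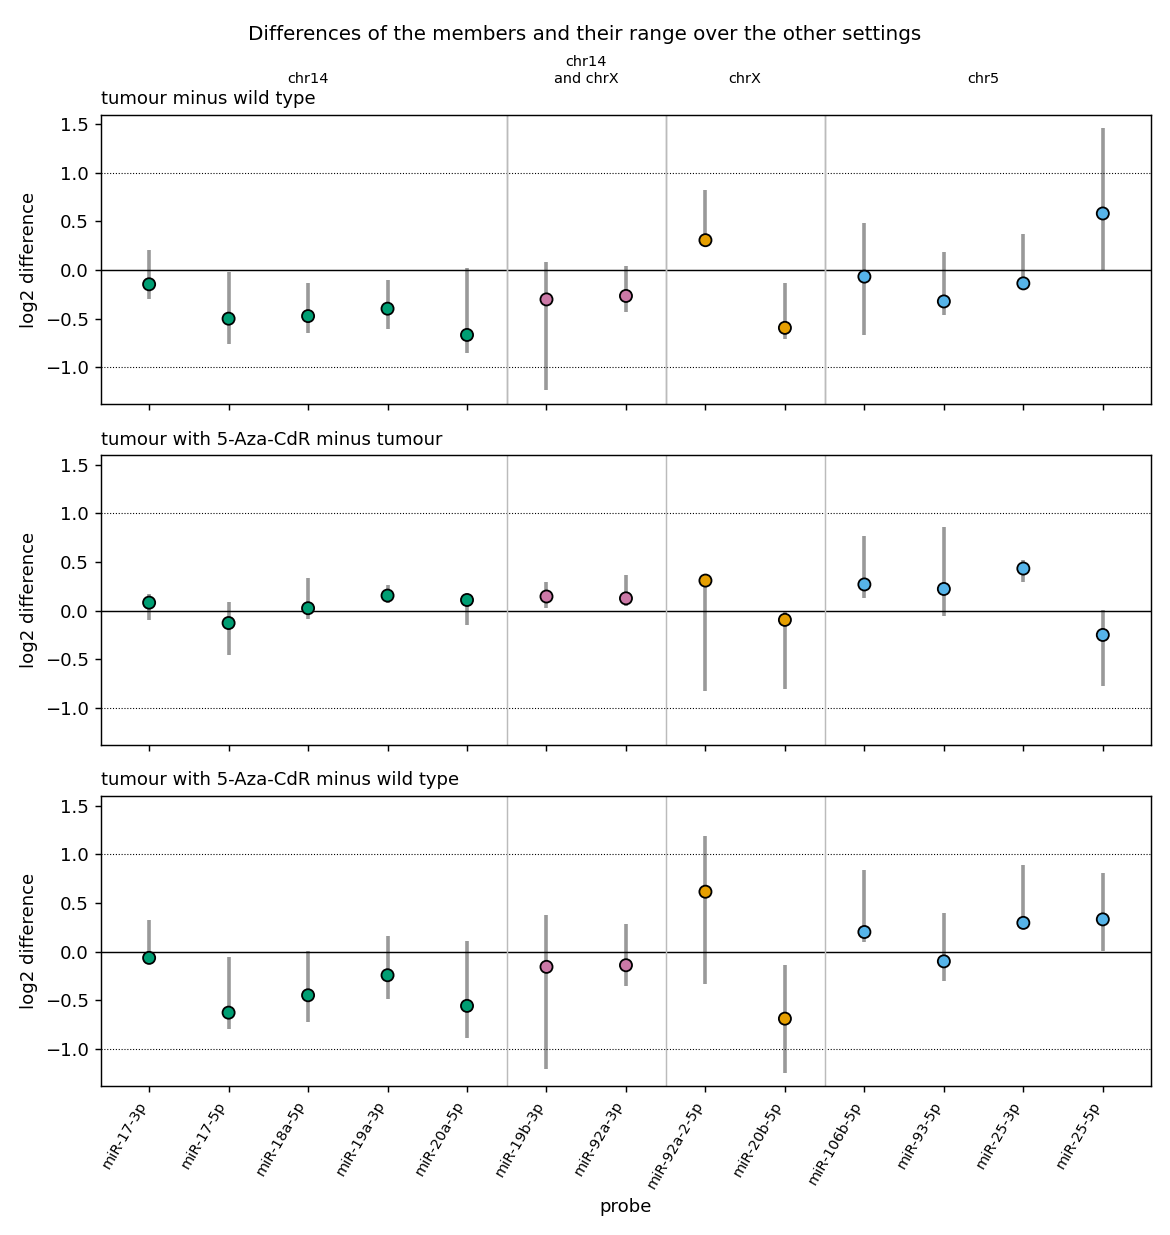
Normalized log2 differences of the 13 bright members (points, coloured and grouped by the chromosome of their hairpin) for tumour minus wild type, treated minus untreated tumour and treated tumour minus wild type. Grey bars give the lowest and highest value over the 7 alternative settings, and dotted lines mark 2-fold. In the top panel the 5 chromosome 14 points lie between -0.67 and -0.15, and in the bottom panel 3 of the 4 chromosome 5 points lie above 0.

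By locus, the median difference between tumour and wild type was lower for chromosome 14 than for chromosome 5, with overlapping members and no test. The 5 bright members made from chromosome 14 alone were all lower, with a median log2 difference of -0.47, and the 4 from chromosome 5 had a median of -0.10. The 2 made from chromosome X alone were split, with miR-20b-5p at -0.60 and miR-92a-2-5p at 0.31. On chromosome 5 miR-93-5p was lowest at -0.32, below miR-17-3p of chromosome 14 at -0.15. The chromosome 5 median exceeded the chromosome 14 median by 0.37, and by 0.40 to 0.67 in 5 of the alternatives and 0.38 with untrimmed blanks. When the per-spot background column was used it was -0.21, with the order of the loci turned round. Within the seed AAAGUGC, miR-17-5p, miR-20a-5p and miR-20b-5p differ from each other at 2 bases and were at -0.50 to -0.67, whereas the more distant miR-93-5p and miR-106b-5p were at -0.32 and -0.07. Locus and sequence likeness overlap in this family, and their parts cannot be told apart here.

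The second comparison asked what 5-Aza-CdR exposure did in tumour organoids. After normalization 10 of the 13 bright members were higher on the treated array, with a median log2 difference of 0.13, while 42.9% of 427 bright probes were higher and their median was -0.02. The highest were miR-25-3p at 0.43, miR-92a-2-5p at 0.31, miR-106b-5p at 0.27 and miR-93-5p at 0.22, and these 4 exceeded the spot spread upward, as 18.3% of bright probes did. miR-25-5p, at -0.25, exceeded it downward, as 17.3% did. The other 8 lay within it, among them miR-17-5p at -0.13, miR-20a-5p at 0.11, miR-20b-5p at -0.09 and miR-18a-5p at 0.03.

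No member was 2-fold different after exposure, where 0.0985% of the 1015 detected probes were higher and 0.0% lower. No bright member reached 1.5-fold in either direction, where 1.41% of bright probes were 1.5-fold higher and 1.41% lower. In the wider set, 14 of 19 detected members were higher, against 44.6% of those 1015. miR-25-3p (0.29 to 0.52), miR-106b-5p (0.13 to 0.77), miR-19a-3p (0.08 to 0.26), miR-19b-3p (0.03 to 0.29) and miR-92a-3p (0.05 to 0.37) were higher in all 7 alternatives. Of these, only miR-25-3p lay beyond the spot spread of 0.17 in each. miR-92a-2-5p turned to -0.83 when the per-spot background column was used. In the authors' deposited values, where the median of all probes was -0.26, 9 of 19 members were higher and their median was -0.03, and 7 of the 13 bright members were lower, where 74.2% of bright probes were.

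**Figure D3:**
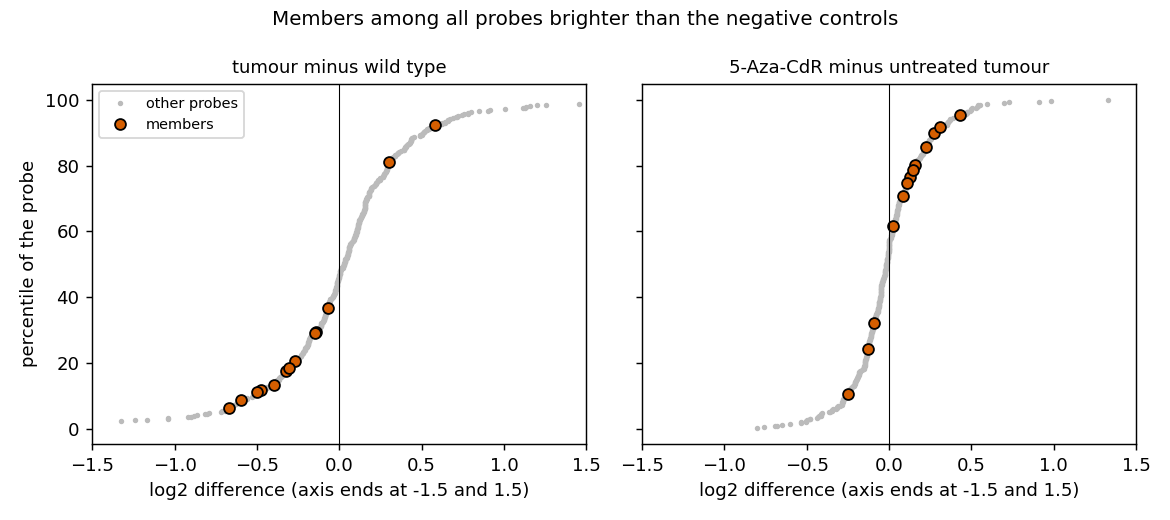
Percentile (vertical axis) against log2 difference (horizontal axis) of every probe brighter than the negative controls, for tumour minus wild type (437 probes, 14 of them beyond the axis) and treated minus untreated tumour (427 probes), with the 13 members as large points. In the left panel 8 members lie in the lowest 25% and 2 in the highest, and in the right panel 2 lie in the lowest and 7 in the highest.

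Treated tumour organoids and untreated tumour organoids were also set against the same wild-type array, so these comparisons share arrays and are given side by side. In treated tumour organoids miR-17-5p was at -0.63 against wild type, miR-20a-5p at -0.56, miR-20b-5p at -0.69 and miR-18a-5p at -0.45, against -0.50, -0.67, -0.60 and -0.47 in untreated tumour organoids. miR-106b-5p was at 0.20 and miR-25-3p at 0.29 in treated organoids, against -0.07 and -0.14 in untreated ones. miR-92a-2-5p was at 0.61, against 0.31, and was the one bright member higher by 1.5-fold in treated organoids than in wild type, where 7.73% of the 440 bright probes were. miR-17-5p and miR-20b-5p were lower by 1.5-fold, against 9.09% of bright probes.

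Against wild type, 9 of 13 bright members were lower in treated tumour organoids, where 48.9% of bright probes were. With the spike controls as scale 3 of 13 were lower, where 13.4% of bright probes were. Of the 21 detected members 14 were lower, against 52.0% of 1027 probes. Beyond the spot spread 7 of the 13 were lower and 4 higher, against 27.5% and 30.9% of bright probes. No member was 2-fold different, where 1.27% of those 1027 were higher and 1.36% lower. All 5 chromosome 14 members were lower, with a median of -0.45, and 3 of the 4 chromosome 5 members were higher, with a median of 0.25. The chromosome 5 median exceeded the chromosome 14 median by 0.70 (0.30 to 1.01 over the 7 alternatives). miR-17-5p (-0.79 to -0.06) and miR-20b-5p (-1.25 to -0.14) were lower in all 7 alternatives. Higher in all 7 were miR-106b-5p (0.10 to 0.84), miR-25-3p (0.30 to 0.89) and miR-25-5p (0.0026 to 0.80). The smallest values of miR-17-5p, miR-106b-5p and miR-25-5p lay within the spot spread. miR-93-5p, made from the same hairpin cluster as miR-106b-5p, was at -0.10, within the spot spread.

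The members higher in tumour organoids, miR-25-5p and miR-92a-2-5p, had 59.1% and 54.5% of G and C in the mature sequence, and miR-92a-3p, with 57.1%, was lower. Across the 13 bright members the tumour minus wild-type difference and the share of G and C in the mature sequence had a Pearson correlation of 0.61 and a Spearman correlation of 0.57. The 5 members under 45% G and C had a median difference of -0.40, and the 8 between 45% and 60% one of -0.21. Over all 362 bright probes with a matched sequence these correlations were 0.17 and 0.24, and 48 of the 154 probes with at least 60% G and C were lower in tumour organoids, against 35 of the 58 under 45%. Treated against untreated tumour gave -0.22 and -0.29 over 353 probes, and -0.17 and -0.15 over the 13 members. All points share the 3 arrays, and related members share sequence. The part of base composition in the differences was not tested.

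**Figure D4:**
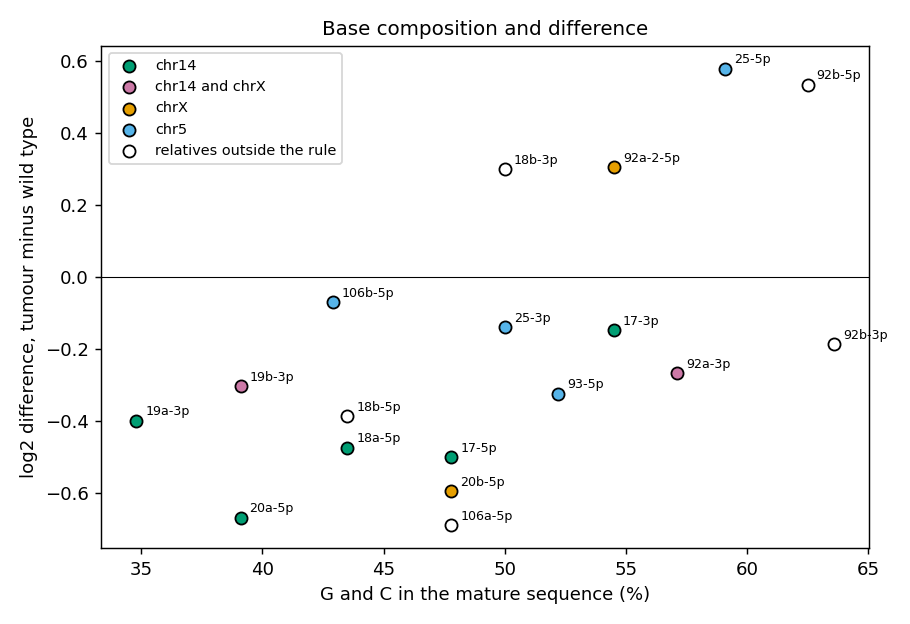
Share of G and C in the mature sequence (horizontal axis, percent) against the tumour minus wild-type log2 difference (vertical axis) for the 13 bright members, coloured by the chromosome of their hairpin, and 5 bright relatives outside the rule (open). miR-25-5p at 59.1% and miR-92a-2-5p at 54.5% lie above 0, and miR-20a-5p at 39.1% lies lowest of the members at -0.67.

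MYC is also known to repress a set of microRNAs, among them let-7, miR-29, miR-23 and miR-34a. Of the 32 bright probes on such a list, 15 were higher and 17 lower in tumour than in wild-type organoids, with a median of -0.04 against 0.03 for all bright probes. The 3 that were 2-fold higher were miR-23b-3p at 1.69, miR-23a-3p at 1.13 and miR-29a-3p at 1.01, where 2.97% of bright probes were, and none was 2-fold lower, where 3.20% were. After 5-Aza-CdR, 27 of 32 were higher and 4 lower, with a median of 0.21, where 42.9% of bright probes were higher. The list was chosen with earlier results of these data known, so its counts are not independent of them. It holds miR-22-3p, which at 1.33 had the highest difference of all probes after exposure.

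By a fixed rule of likeness, the probes nearest to the mean profile of miR-17-5p, miR-20a-5p, miR-20b-5p, miR-106b-5p and miR-93-5p were miR-214-3p, miR-23a-5p, miR-652-3p, miR-1895 and miR-140-3p. The measure was the distance between log2 values centred on their mean over the 3 arrays, among 356 other probes brighter than the negative controls on all arrays, and it ran from 0.030 to 0.067. Of these, miR-214-3p is on the smooth muscle and fibroblast list above, and miR-23a-5p is on the list of MYC-repressed microRNAs. With only 3 arrays many probes have a similar profile.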

How the data were processed

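Total RNA from the mirVana kit carried the dye Hy5, per the labels' protocols. Per the file headers, scans at 635 nm used 3 gains, and each deposited intensity is a spot median before any background step. A second deposited table, of the authors' values, gives a linear intensity with a median of 25 per array. Within each array these values were a straight line of the spot medians (largest residual 1.32e-05). No centring by gene was therefore present. The software and array design were not given in the sources used here.

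Sample titles gave the groups. Bad flags at any gain excluded 2 wild-type probe spots, neither of them a member. limma 3.58.1 in R 4.3.3 fitted normexp on the 1664 blank spots, with 5% trimmed at each end and an offset of 50, and quantile normalized the 1265 probes. The per-spot background column tracked spot signal (r = 0.98 in treated tumour, 0.99 in tumour and 0.99 in wild type, log scale) and served only as an alternative. The number of arrays limits the precision. With 1 array per group nothing was tested, and probes were counted by direction, by 1.5-fold and 2-fold, and against the spread of 8 replicate spots of each spike control.

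The members, lists and rules were chosen with earlier results of these data known. Every member brighter than the negative controls was named with its values, and dimmer ones were given by their range and counts. Sequences were matched by name to RefSeq. Python 3.11.15 with numpy 2.4.6, pandas 2.3.3 and matplotlib 3.10.9 was used for the rest. The alternatives were an offset of 16, subtraction of the blank mean, the per-spot background column, scaling to the median of commonly detected probes or to the spike controls, the authors' values, a limit at the brightest negative control and, added after seeing the data, untrimmed blanks.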

Additional observations from a re-analysis of the deposited data

How the results depend on the processing

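With 1 array per group, the direction of a member rests on the background and scaling steps. The median over detected members in tumour against wild type moved from -0.07 to -0.33 with the blank mean subtracted, to -0.30 over members brighter than the negative controls and to 0.05 with the spike controls, which turned its sign. It moved in treated tumour against wild type from -0.02 to -0.17 with the blank mean subtracted, to 0.11 with the spike controls and to -0.30 in the authors' values. Members past 2-fold numbered 0 in each main comparison. In tumour against wild type miR-25-5p was the 1 higher member after subtraction of the blank mean, and the 1 in the authors' values, 2 were lower with the blank mean subtracted (miR-19b-2-5p and miR-20b-3p, near the detection limit) and 1 (miR-19b-3p) with the per-spot background column. In treated against untreated tumour 1 was lower in the authors' values (miR-20a-3p). In treated tumour against wild type 1 was higher with the spike controls (miR-92a-2-5p), 1 lower with the blank mean subtracted (miR-20b-3p) and 2 (miR-19b-3p and miR-20b-5p) with the per-spot background column. Untrimmed blanks, chosen after seeing the data, turned none of these signs. The cause was not tested.

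Among values beyond the spot spread, 15 took the opposite sign in an alternative. When the per-spot background column was used, miR-20a-5p was at 0.017 and miR-25-5p at -0.0034 in tumour against wild type, where the chromosome 5 median lay -0.21 from that of chromosome 14. In the same setting, treated against untreated tumour gave 0.006 for miR-25-5p and -0.83 for miR-92a-2-5p, and treated tumour against wild type gave 0.10 for miR-20a-5p and -0.34 for miR-92a-2-5p. With the spike controls, tumour against wild type gave 0.080 for miR-19b-3p, 0.044 for miR-92a-3p and 0.19 for miR-93-5p, and treated tumour against wild type gave 0.0025 for miR-18a-5p, 0.16 for miR-19a-3p, 0.37 for miR-19b-3p and 0.28 for miR-92a-3p. In the authors' values miR-93-5p was at -0.056 in treated against untreated tumour. The values at each single scan gain were not used here, since only the flags are given per gain. No paired analysis was possible because each group has 1 array.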
